A study of Mus musculus with 4 samples.

Results

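The genes described here encode 7 cell-surface peptidases: Mme (neprilysin, also called CD10), Anpep (aminopeptidase N, CD13), Dpp4 (dipeptidyl peptidase 4, CD26), Enpep (aminopeptidase A), Ece1 (endothelin-converting enzyme 1), Ace (angiotensin-converting enzyme) and Fap (fibroblast activation protein). They were taken by gene symbol from the platform's annotation, and all 7 were measured, each by 1 probe set, out of 19505 genes on the array. Where a gene has several probe sets the choice rule takes the one with the highest mean signal, which had no bearing on these 7. The set was proposed with earlier results of the same arrays known and is named after Mme. The measured values behind that choice are not recorded, so the Mme contrast of knockout against control is treated as having been selected on. The signals of the 7 genes are therefore given as a description. No p-value of Mme is given, and counts of limma calls over the set include it and support nothing.

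RNA of MC38 cells, a mouse colon adenocarcinoma line, was measured on 4 Clariom S mouse arrays. The knockout group comprised clone 1 and clone 2, each carrying a CRISPR-Cas9 knockout of Mgat5, a Golgi glycosyltransferase that builds highly branched N-glycans. The control group comprised MOCK cells, which received the empty vector, and WT cells, the unaltered line, so each group had n = 2 arrays. Each knockout array stands for 1 clone and neither control is titled as a clone, so effects of cloning and of Mgat5 loss cannot be told apart. Whether the RNA came from separate cultures is not stated in the labels, and p-values measure only the spread between these arrays. All values are log2 signals as the authors deposited them unless quantile normalization, which forces the arrays to 1 distribution, is named.

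Ectopeptidases are membrane enzymes whose active site faces outward, where they shorten or inactivate peptide hormones, neuropeptides and chemokines near the cell. They are heavily N-glycosylated proteins, and the Mgat5 product is one of the enzymes that shape such glycans. Mme and Ece1 belong to one family of zinc metallopeptidases, Anpep and Enpep to another, Ace to yet another, and Dpp4 and Fap are related serine peptidases. In the gut several of them are known from the enterocyte brush border. Mme and Fap also mark stromal fibroblasts, and in humans Mme marks early B cells.

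The knocked-out gene, the background and the identity of the cells were checked first. Mgat5 had a signal of 7.46 in clone 1 and 7.57 in clone 2, against 8.19 in MOCK and 8.27 in WT. Both clones lay below both controls, as in 11.7% of all probe sets as deposited and 21.3% after quantile normalization. The difference of -0.71 log2 units was not called (limma adjusted p = 0.631). The order of the arrays goes with their titles but does not by itself establish them. The array carries 5222 negative-control features, recognised by name, with medians from 5.12 to 5.22, 75th percentiles from 6.29 to 6.56 and 95th percentiles from 8.62 to 8.98 over the 4 arrays. A gene below the negative-control median is called at background here and is described by its signals, without a fold. Of all probe sets, 52.6% to 54.4% per array lay above that median and 41.5% to 43.7% above the 75th percentile. Counts of genes at background should be read beside these shares. The median difference of all 22206 probe sets, knockout minus control, was 0.18 log2 units as deposited and -0.02 after quantile normalization, against which every difference below should be read. Of 12 colon epithelial markers, 0 lay above the 75th percentile of the negative controls on any array, Epcam, Krt20, Cdh1, Cdx2 and Vil1 among them, so the labelled tissue of origin is not visible in these markers.

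RefSeq (GRCm38.p6) lists 3 transcription start sites for Mme, and the annotation ties its probe set to 3 RefSeq transcripts, so the array cannot tell which start was used. Because the set is named after Mme, the promoter windows of its first start and of the nearest non-overlapping one are shown. They run from 250 bases before to 50 after each start. Capitals mark GC boxes (GGGCGG, or CCGCCC on the other strand) and CCAAT boxes (CCAAT or ATTGG).
Mme upstream start, chr3:63294961-63295260, plus strand: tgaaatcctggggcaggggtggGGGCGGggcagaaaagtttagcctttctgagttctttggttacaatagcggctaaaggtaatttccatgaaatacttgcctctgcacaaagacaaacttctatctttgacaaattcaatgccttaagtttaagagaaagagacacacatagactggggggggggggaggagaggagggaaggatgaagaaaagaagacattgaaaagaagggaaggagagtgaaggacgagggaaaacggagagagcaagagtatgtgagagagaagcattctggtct
Mme downstream start, chr3:63295622-63295921, plus strand: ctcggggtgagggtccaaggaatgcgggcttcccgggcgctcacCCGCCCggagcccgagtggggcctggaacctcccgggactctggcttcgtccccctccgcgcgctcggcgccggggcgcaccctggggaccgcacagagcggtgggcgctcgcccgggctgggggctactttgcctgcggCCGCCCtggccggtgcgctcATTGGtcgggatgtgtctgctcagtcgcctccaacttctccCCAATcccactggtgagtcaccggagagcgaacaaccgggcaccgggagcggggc
The upstream window holds 4 CpG dinucleotides and 46.0% G or C, and the downstream window 32 CpG dinucleotides and 73.0% G or C, where the median of all 32851 promoter windows in the table is 7 CpG dinucleotides and 52.7%. GC boxes are found in 35.7% of all windows and CCAAT boxes in 37.4%, so finding them is common. A TATA box, searched as TATAAA or TTTATA, is found in 13.6% of all windows and in neither of these. Of the 7 genes 6 have a window in the table, and Fap is named only.

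Mme was the one gene of the 7 whose signal exceeded the 75th percentile of the negative controls on every array. It had a signal of 11.10 in clone 1 and 10.57 in clone 2, against 7.35 in MOCK and 8.37 in WT. Both clones also exceeded the 95th percentile of the negative controls and both controls lay below it. The groups did not overlap, and the lowest clone lay 2.21 log2 units above the highest control. The group means were 10.84 ± 0.37 log2 units in the knockout and 7.86 ± 0.72 log2 units in the control (SD, n = 2 each), a difference of 2.98 log2 units or 7.88-fold. Neprilysin, its product, cleaves enkephalins, substance P, natriuretic peptides and bradykinin at the cell surface.

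**Figure D1:**
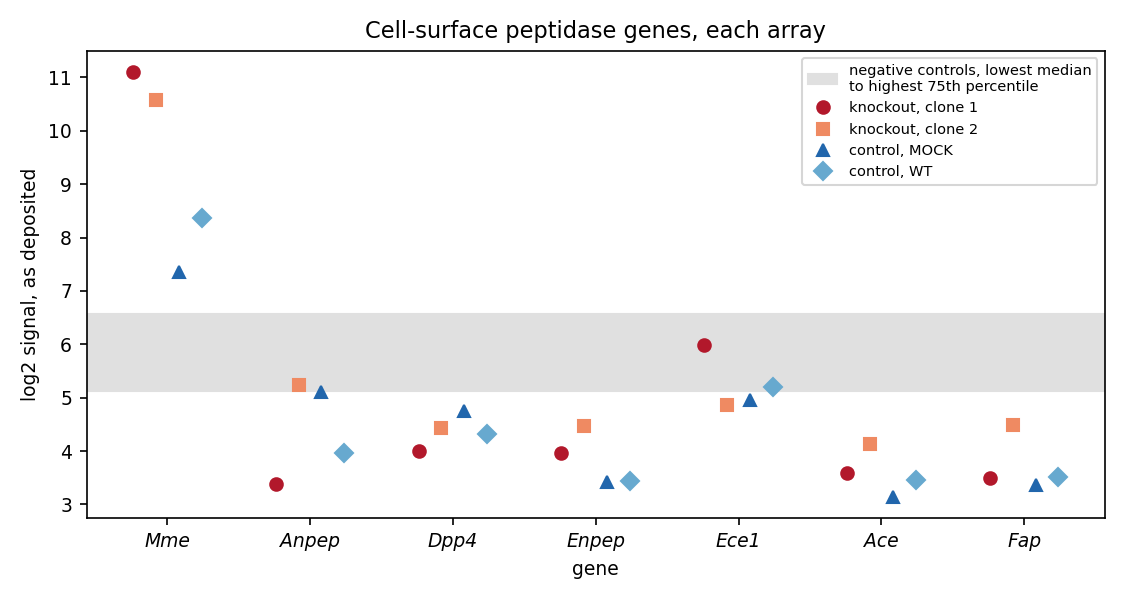
Log2 signal as deposited (y axis) of each of the 7 peptidase genes (x axis), 1 point per array, knockout clones left of the controls, with a grey band from the lowest median to the highest 75th percentile of the negative controls. Mme lies at 11.10 and 10.57 in the clones and at 7.35 and 8.37 in the controls, while the other genes reach at most 5.99 on any array.

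After quantile normalization its signals were 10.97 in clone 1 and 10.29 in clone 2, against 7.40 in MOCK and 8.76 in WT, a difference of 2.55 log2 units or 5.85-fold. The clones still lay above both controls, with the lowest clone 1.53 log2 units above the highest control. Against the mean of the controls, clone 1 was 3.24 log2 units higher and clone 2 was 2.71 higher as deposited, and 2.89 and 2.21 after quantile normalization. These comparisons share the control arrays. At least 1 log2 unit higher were 6.31% of all probe sets in clone 1 and 11.8% in clone 2, or 3.94% and 5.41% after quantile normalization.

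Within the groups the arrays also differed. Clone 2 minus clone 1 was -0.53 log2 units for Mme, or -0.69 after quantile normalization. MOCK minus WT was -1.01 log2 units, or -1.35 after quantile normalization, so Mme was lower in MOCK than in WT by 2.02-fold as deposited. Between these single arrays 1.27% of all probe sets were at least 1 log2 unit lower in MOCK, or 2.67% after quantile normalization. The order of the arrays was clone 1, clone 2, WT and MOCK on both scales. Among 19505 genes the knockout minus control difference of Mme ranked 24th as deposited and 29th after quantile normalization, given as a description only.

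**Figure D2:**
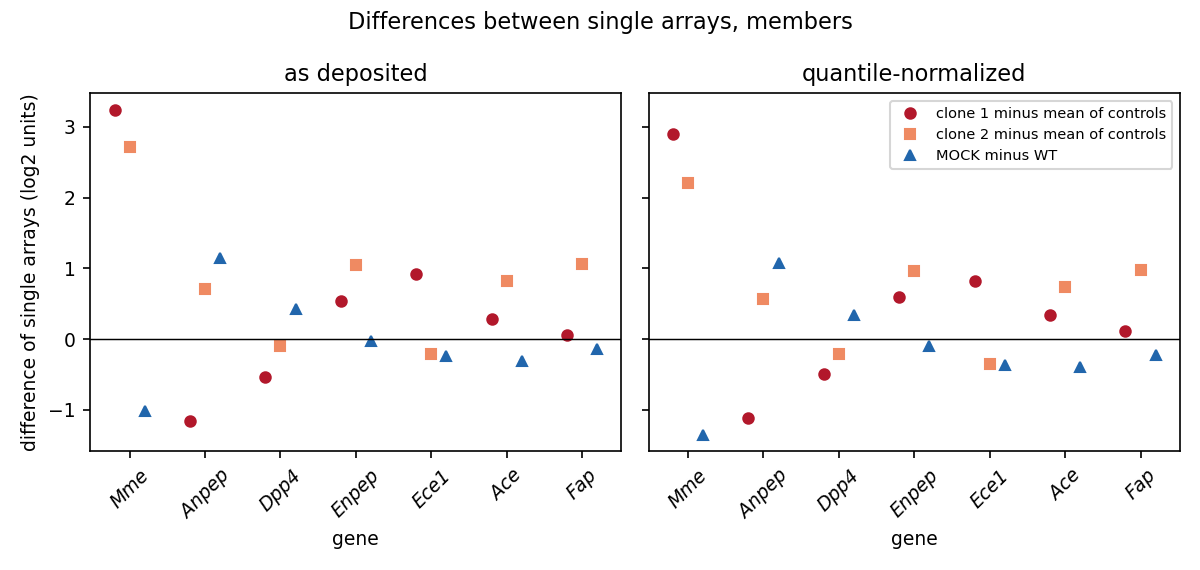
Difference between single arrays in log2 units (y axis) for the 7 genes (x axis), as deposited on the left and quantile-normalized on the right, with points for clone 1 and clone 2 against the mean of the controls and for MOCK minus WT. Mme stands at 3.24 and 2.71 in the clones as deposited and at -1.01 between the controls, and the clone differences of the other genes as deposited run from -1.16 (Anpep) to 1.06 (Fap).

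Ece1, the relative of Mme that cuts big endothelin to the active peptide, was near background. Its signal was 5.99 in clone 1 and 4.87 in clone 2, against 4.95 in MOCK and 5.19 in WT. Clone 1 was the high array and clone 2 the low one, so the groups overlapped. Ece1 exceeded the median of the negative controls on 2 arrays and their 75th percentile on 0.

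The aminopeptidases Anpep and Enpep, and also Ace, had group means below the negative-control median. Anpep, which removes N-terminal neutral amino acids, had a signal of 3.38 in clone 1 and 5.24 in clone 2, against 5.12 in MOCK and 3.96 in WT. Clone 2 and MOCK were high and clone 1 and WT low, with 1 array, clone 2, above the median of the negative controls. Enpep, which turns angiotensin II into angiotensin III, had a signal of 3.96 in clone 1 and 4.48 in clone 2, against 3.42 in MOCK and 3.44 in WT. The clones lay above the controls, yet all 4 arrays were below the negative-control median. Ace, which makes angiotensin II, had a signal of 3.59 in clone 1 and 4.13 in clone 2, against 3.15 in MOCK and 3.46 in WT. Its clones also lay above its controls with every array below that median.

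The serine peptidases of the set were below the negative-control median on every array. Dpp4, which trims chemokines and incretins, had a signal of 4.004 in clone 1 and 4.43 in clone 2, against 4.75 in MOCK and 4.32 in WT. Fap, which cuts denatured collagen, had a signal of 3.50 in clone 1 and 4.50 in clone 2, against 3.36 in MOCK and 3.51 in WT. Both groups overlapped as deposited. After quantile normalization the Dpp4 clones lay below both controls and the Fap clones above them, with all of these signals at background.

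Counted over the set, both clones lay above both controls for 3 of 7 genes (Mme, Enpep and Ace) and below them for 0, where 27.8% of all probe sets had both clones above and 11.7% both clones below. After quantile normalization the counts were 4 higher and 1 lower, with 19.2% and 21.3% of all probe sets. Limma called 0 of the 7 at an adjusted p under 0.05, with 0.0405% of all probe sets called, and 0 again after quantile normalization, with 0.0045%. At an unadjusted p under 0.05 limma found 1 of the 7, and 2 after quantile normalization, where it found 8.75% and 8.92% of all probe sets. Adjusted p-values of the 6 genes other than Mme ran from 0.600 to 0.945 in the limma fit over all probe sets. The choice of genes is treated as having used this contrast, so nothing is read from these counts. The count of calls under other settings is given with the dependence on processing.

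The genes whose profile over the 4 arrays was nearest to that of Mme were found among 11282 genes by the Euclidean distance between profiles centred on their own means. A gene entered if any array reached the negative-control median, so genes that are high in the clones alone could enter. Mef2c, a transcription factor, was nearest at a distance of 0.73 log2 units, with signals of 9.98 in clone 1 and 9.74 in clone 2, against 6.29 in MOCK and 8.16 in WT. Akr1c13, an aldo-keto reductase, followed at 0.82, with 6.55 and 6.66 in clone 1 and clone 2, against 3.94 and 4.55 in MOCK and WT, where it was at background. Ly6c1, a GPI-anchored surface protein, also stood at 0.82, with 11.19 and 10.30 in the clones, against 8.02 and 9.07 in MOCK and WT. Each of these was lowest in MOCK and highest in a clone, as Mme was. Fam180a at 0.85 and the glutamate receptor subunit Gria4 at 0.90 completed the 5 nearest. The mean of the controls was at background for Akr1c13 and Gria4, so their distances rest in part on signals that carry no measured level. After quantile normalization the same 5 genes were nearest, in another order. With 4 arrays such likeness is a description of these arrays.

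**Figure D3:**
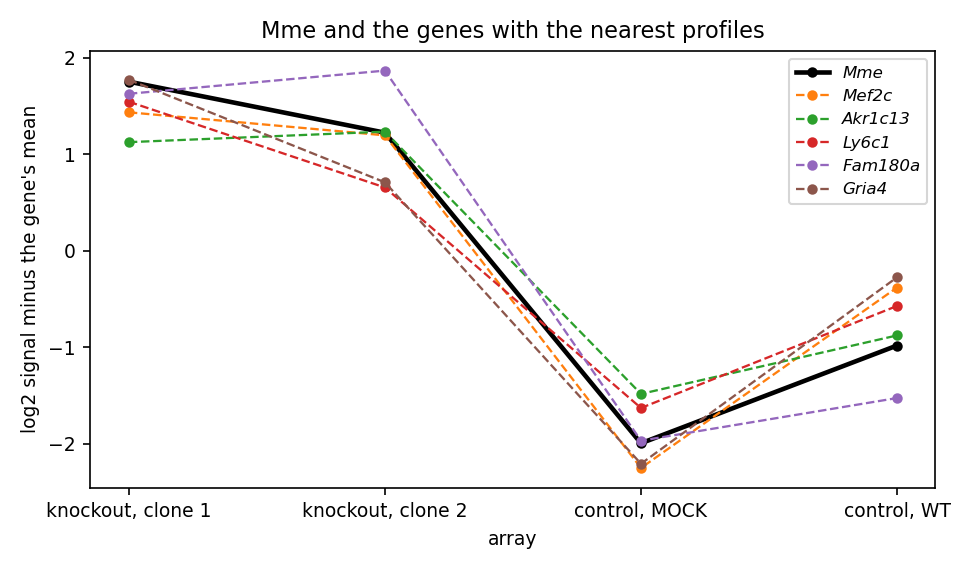
Log2 signal minus the gene's own mean over the arrays (y axis) on each array (x axis, knockout clones first), for Mme (solid black) and the 5 genes with the nearest profiles (dashed). All 6 lines are high in clone 1 and clone 2 and lowest in MOCK, with Mef2c at a distance of 0.73 from Mme.

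The 4 nearest measured genes of Mme on chromosome 3, 2 on each side, are given beside it. Mme is treated as selected on its difference, so nothing is read from its neighbours differing by less. Plch1, next to Mme on one side, had a signal of 3.40 in clone 1 and 3.60 in clone 2, against 3.41 in MOCK and 3.41 in WT, and every one of these is at background. E130311K13Rik, beyond Plch1, had 7.36 in clone 1 and 6.95 in clone 2, against 6.74 in MOCK and 6.41 in WT, with both clones above both controls as deposited and overlapping groups after quantile normalization. Gpr149, an orphan receptor on the other side, had 9.12 in clone 1 and 9.83 in clone 2, against 8.23 in MOCK and 8.02 in WT, and its difference of 1.34 log2 units did not pass (limma adjusted p = 0.359). Dhx36, a helicase beyond Gpr149, had 11.90 and 12.57 in clone 1 and clone 2, against 12.18 and 11.57 in MOCK and WT. Over the 25 genes that are the nearest 2 on each side of the 7 members, limma called 0 and found 3 at an unadjusted p under 0.05. Over all probe sets it called 0.0405% and found 8.75%, and the counts of the gene lists below should be read beside the same shares. Dpp4, Gcg and Fap are neighbours on chromosome 2, and Ifih1, an RNA sensor next to Fap, had 9.51 in clone 1 and 13.01 in clone 2, against 9.78 in MOCK and 8.90 in WT, while Fap itself stayed at background.

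Other membrane peptidases were mostly at background. Of 28 measured, 20 were below the negative-control median in both groups. Limma called 0, with 3 at an unadjusted p under 0.05, where 8.75% of all probe sets were. The median difference was -0.07 log2 units, against 0.18 over all probe sets. Cpm, a membrane carboxypeptidase, had a signal of 6.82 in clone 1 and 5.33 in clone 2, against 4.91 in MOCK and 4.22 in WT (limma adjusted p = 0.423). Erap1, which trims peptides in the endoplasmic reticulum, stood at 11.52 and 11.89 in clone 1 and clone 2, against 11.59 and 10.81 in MOCK and WT, and the sheddase Adam10 at 10.75 and 10.05 in the clones, against 10.92 and 10.41 in MOCK and WT. For both of these genes the groups overlapped as deposited.

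The soluble and intracellular peptidases were, in contrast, well expressed. Of 20 measured, 17 lay above the 75th percentile of the negative controls on all 4 arrays. Limma called 0, with 2 at an unadjusted p under 0.05, where 8.75% of all probe sets were. Dpp7, a lysosomal dipeptidyl peptidase, had a signal of 9.57 in clone 1 and 10.12 in clone 2, against 8.94 in MOCK and 8.61 in WT, a difference of 1.07 log2 units (SE 0.39, limma adjusted p = 0.475). Ctsa, a lysosomal carboxypeptidase, had 15.19 and 15.15 in clone 1 and clone 2, against 14.52 and 14.11 in MOCK and WT. Dpp3, a cytosolic enkephalin-degrading enzyme, had 12.39 and 12.86 in the clones, against 12.24 and 11.62 in MOCK and WT. The median difference of the list was 0.28 log2 units as deposited and -0.11 after quantile normalization.

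Peptides and proteins that these enzymes cut were measured by 28 genes, of which 18 were below the negative-control median in both groups. Limma called 0 and found 3 at an unadjusted p under 0.05, where it found 8.75% of all probe sets. The median difference was 0.09 log2 units. Cxcl10, a chemokine that Dpp4 trims, had a signal of 14.49 in clone 1 and 17.08 in clone 2, against 13.65 in MOCK and 12.58 in WT (limma adjusted p = 0.285). Ccl5, also trimmed by Dpp4, had 9.90 in clone 1 and 12.91 in clone 2, against 9.02 in MOCK and 8.19 in WT. Cxcl11 had 9.55 in clone 2 and 3.59 in clone 1, against 3.37 in MOCK and 3.40 in WT. In these chemokines clone 2 stood far above clone 1, whereas Mme was slightly higher in clone 1. Agt, the precursor of the angiotensins, was at 4.67 in clone 1 and 6.92 in clone 2, against 4.66 in MOCK and 4.95 in WT.

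Receptors for the same peptides included 19 measured genes, 12 of them below the negative-control median in both groups. Limma called 0, with 2 at an unadjusted p under 0.05, where 8.75% of all probe sets were. The median difference was 0.13 log2 units. Npr3, the clearance receptor for natriuretic peptides, had a signal of 6.74 in clone 1 and 7.28 in clone 2, against 5.95 in MOCK and 6.10 in WT (limma adjusted p = 0.508). Npy1r, a receptor for neuropeptide Y, had 5.38 and 5.58 in clone 1 and clone 2, against 3.77 and 4.98 in MOCK and WT. Of 6 measured gut transcription factors limma called 0, with 1 at an unadjusted p under 0.05, and Gata4 was at 5.98 and 6.10 in the clones, against 5.32 and 5.04 in MOCK and WT.

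**Figure D4:**
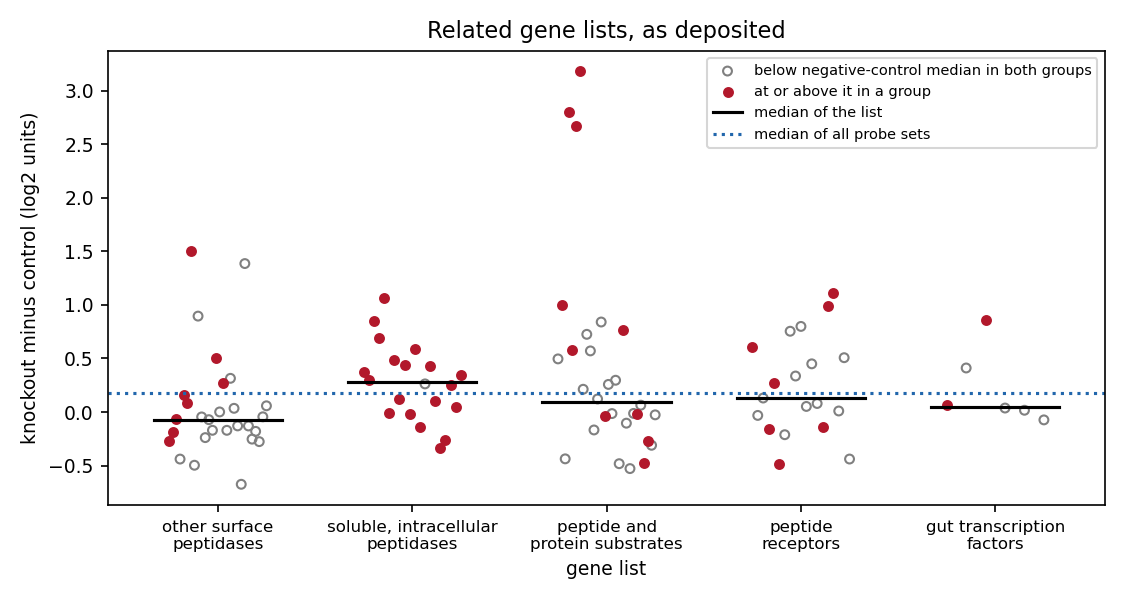
Knockout minus control in log2 units (y axis) for each gene of 5 related lists (x axis), with open points for genes below the negative-control median in both groups, a bar at each list's median and a dotted line at the median of all probe sets, 0.18. The list medians lie between -0.07 and 0.28, and the highest points are the chemokine substrates Cxcl11, Ccl5 and Cxcl10.

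Markers of the cell types named above for Mme, and of other cell types, were set beside it. Of 5 lymphoid markers 5 were below the negative-control median in both groups, and 0 lay above their 75th percentile on any array. Of 8 stromal fibroblast markers 3 lay above that percentile on all arrays, and the list's mean log2 signal was 6.90 in clone 1 and 7.54 in clone 2, against 7.37 in MOCK and 7.33 in WT. The list went both ways, with 5 of 8 higher and 3 lower in the knockout and a median of 0.45 log2 units as deposited and 0.19 on the quantile-normalized scale. Dcn, the matrix proteoglycan decorin, had a signal of 8.94 in clone 1 and 11.18 in clone 2, against 12.95 in MOCK and 13.61 in WT, with both clones below both controls (limma adjusted p = 0.121). Col3a1, a fibrillar collagen chain, was at 11.19 and 10.75 in the clones, against 11.80 and 11.79 in MOCK and WT. Pdgfrb, a growth factor receptor of fibroblasts that was named after its values were seen, had both clones above both controls, at 11.70 and 12.02, against 11.47 and 11.42 in MOCK and WT, a difference of 0.42 log2 units that became -0.04 after quantile normalization. Col1a2, a chain of a fibrillar collagen, stood at 6.99 in clone 1 and 5.09 in clone 2, against 5.08 in MOCK and 5.29 in WT. Col1a1, its partner chain, stood at 4.92 in clone 1 and 5.99 in clone 2, against 4.87 in MOCK and 4.89 in WT. Of 5 myeloid, 4 endothelial and 8 brush border markers, 0 lay above the 75th percentile of the negative controls on any array. Limma called 0 genes of these marker lists, with 1 stromal and 1 endothelial gene at an unadjusted p under 0.05.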

How the data were processed

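RNA of 4 MC38 samples was measured on 1-colour arrays, 1 per sample. The authors deposited normalized log2 signals, made with the Transcriptome Analysis Console per the submitters' processing notes. Normalization, summarisation, software version and array build were not given in the sources used here, and the log2 scale was read from the range of the values. Groups came from the sample titles and the design text, because a cell label names the knockout on all 4 samples.

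Of 28846 features, 6640 controls were left out and 22206 probe sets were fitted with limma (version 3.58.1, R 4.3.3; lmFit and eBayes, knockout minus control, no covariate, Benjamini-Hochberg over all probe sets, called at an adjusted p under 0.05). The fitting code was tested on simulated data with a spread shared by all probe sets, which says nothing about the spread of these arrays. Gene names came from the platform annotation, and the Entrez identifiers of 19572 probe sets matched RefSeq genes of GRCm38.p6. For a gene with several probe sets the one with the highest mean was used.

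The members and the lists were chosen with earlier results of these data known. From each list up to 4 genes with the largest difference were eligible to be named among those at or above the negative-control median in a group, together with any called gene, and the nearest 2 measured genes on each side of a member. Single arrays were compared without a test. The small number of arrays, 2 in each group, limits the precision. The alternatives were quantile normalization, median centring, filters on mean signal (at the median, or at percentile 25), eBayes with trend and robust, the mean of a gene's probe sets, and each array left out in turn.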

Additional observations from a re-analysis of the deposited data

How the results depend on the processing

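The Mme difference of 2.98 log2 units was 2.55 after quantile normalization, 2.84 after median centring and 2.47 to 3.48 with 1 array left out. Its groups did not overlap, so leaving out 1 array could not reverse its direction. The filters and the trend and robust prior leave the difference itself unchanged. Mme is treated as selected on this contrast, so these values are a description. The 7 genes have 1 probe set each, so averaging probe sets changed none of their values. Over all probe sets, limma called 9 of 22206 as deposited and 340 of 22206 with the trend and robust prior. It called 196 of 11103 with the filter at the median and 125 of 16654 with the filter at percentile 25. Counts of calls over all probe sets are not given with 1 array left out, because 1 group then has a single array. The count of members called, 0 as deposited, was 1 with either filter on dim probe sets and with the trend and robust prior. That 1 gene was Mme, whose contrast is treated as having been selected on, so these counts are no evidence for a difference. What caused the changes in these counts was not tested. The count with both clones higher was 1 with either filter, which removed other members, and 3 to 5 with 1 array left out. The count with both clones lower was 1 after quantile normalization and after median centring, and 0 to 2 with 1 array left out. With 1 array left out, 1 group holds a single array, so groups separate more easily than with 2 arrays each. Shares of all probe sets are not given for the filters, median centring or arrays left out. Nothing is read from the non-overlap counts under those settings. The Anpep difference of -0.23 became 0.35 without MOCK and 0.70 without clone 1 (from -1.16 to 0.70 over the arrays left out), and the Ece1 difference of 0.36 became -0.21 without clone 1 (from -0.21 to 0.92). In the lists, 2 substrates, Cxcl10 and Ccl5, were called with either filter and with the trend and robust prior. With 1 array left out the count was 0 to 4, and it was 4 without clone 1. Clone 2 is then the only knockout array, and the 4 include Cxcl11 and Agt, whose signals were high in clone 2 alone. No share of all probe sets stands beside the counts with 1 array left out, so nothing is read from them. Of the other surface peptidases 2, Cpm and, chosen after its values were seen, Naalad2, were called with the trend and robust prior. No paired analysis was made, because the titles pair no clone with a control. Most of the 7 genes lie at the level of the negative controls, where differences cannot be resolved.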
